A study of Arabidopsis thaliana with 3 samples.

Results

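The DNA regions described here are those where a fusion of SOB3 with GFP was recovered just outside protein-coding genes on the chromosome arms of Arabidopsis thaliana. SOB3 belongs to the AT-hook nuclear proteins and holds back growth of the young stem. Overlapping peaks (at least 1 bp) of both ChIP replicates were joined, and a joined region was kept when it held peaks of both. The summit was that of its replicate 1 peak with the highest fold enrichment. Of 3823 such regions in all, 2875 lay on the arms, outside fixed pericentromeric intervals of chromosomes 1 to 5, and 746 of these had their summit 1 to 250 bp from the nearest edge of a protein-coding gene and inside none. This is 25.9% of the arm regions (exact 95% binomial interval 24.4% to 27.6%). Such intervals, here and below, cover counting error only.

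Both libraries came from whole Col-0 plants of 14 days with the genotype ProSOB3::SOB3-GFP sob3-4, in which the SOB3 promoter drives the fusion in a background carrying the sob3-4 allele. Plants were raised at 22 °C with 16 h of light and 8 h of darkness a day and harvested at ZT4, that is 4 h after lights-on. Chromatin was sheared to about 200 to 400 bp and precipitated with an anti-GFP antibody. The series also held 1 input library of the same line without antibody, of which no file was used here. All 3 libraries carried the fusion and the allele, and whole plants pool all tissues. The labels do not say whether the 2 ChIP replicates came from separate plantings, so any spread between them may be technical.

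AT-hook proteins grip the minor groove of A+T-rich DNA through a short basic motif. Members of this plant family carry a further domain through which they join each other and other nuclear proteins. The stretch next to a gene edge holds the core promoter on one side of a gene and the sequence around the transcript end on the other. The gene table gives spans without strand, so which of these edges is the start was not used here and both sides are pooled.

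The fold enrichment given for each region is the authors' own, a linear ratio of signal at the peak summit to the control value, for the highest peak of each replicate. The replicate 1 list held 9980 peaks and the replicate 2 list 4788, and the lists carry no read totals, so depth per library is unknown. With 1 group of 2 libraries and no precipitation from plants without the fusion, no test between conditions was possible. Whether chromatin from plants lacking the fusion would give peaks here was not tested.

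Of the 4 places compared, pooled over their length, the 1 to 250 bp outside gene edges held SOB3-GFP regions most densely. The arms held 7.89 Mb of sequence 1 to 250 bp outside protein-coding genes, 8.96% of arm sequence, and it carried 94.6 regions per Mb. Sequence 251 to 1000 bp outside genes carried 72.8 per Mb (863 regions), sequence beyond 1 kb 64.7 per Mb (687 regions) and sequence inside protein-coding genes 10.0 per Mb (579 regions). The share of sequence to which reads can be assigned was not measured in any of these classes.

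In steps of 50 bp, the density was 82.5 regions per Mb at 1 to 50 bp outside the edge, 101 at 51 to 100 bp, 99.0 at 101 to 150 bp, 101 at 151 to 200 bp and 92.7 at 201 to 250 bp. It was 90.8 at 251 to 300 bp, 88.0 at 301 to 350 bp and 66.8 at 351 to 400 bp, so there was no step at the 250 bp limit. Farther out it varied without a steady fall, between 55.9 and 85.5 over the steps from 501 to 1000 bp, and at 551 to 600 bp (85.5) and 901 to 950 bp (85.3) it was above that of the first 50 bp. On the other side of the edge it was lower and fell with depth into the gene, with 54.6 regions per Mb in the first 50 bp, 35.9 at 51 to 100 bp and 13.4 at 201 to 250 bp. The summits described here lay a median of 115 bp from the edge (quartiles 59 and 177 bp).

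**Figure D1:**
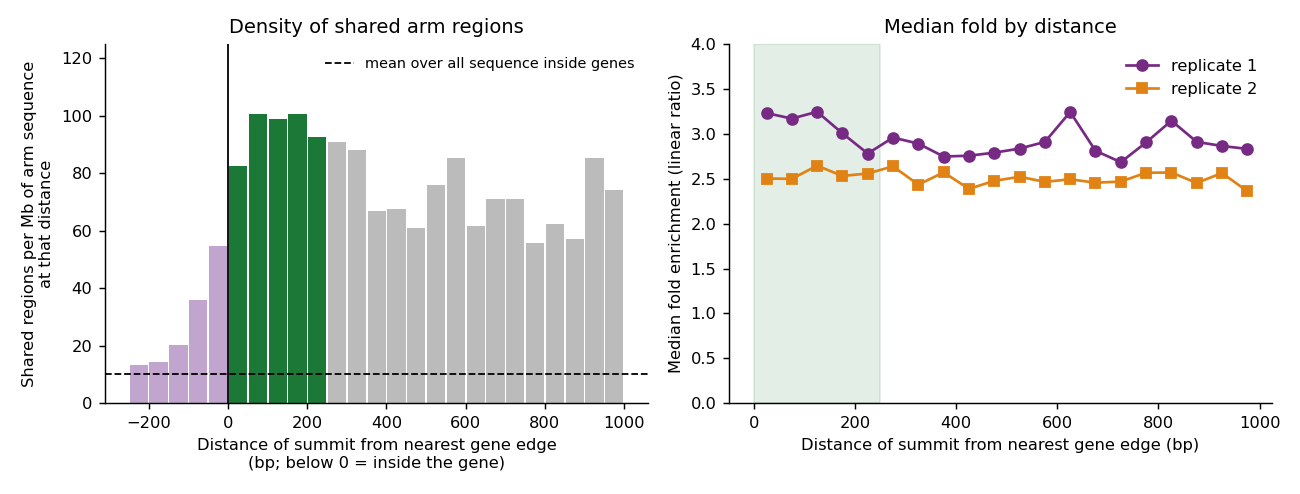
Left, shared arm regions per Mb of arm sequence in 50 bp steps of distance from the nearest protein-coding gene edge (green, 1 to 250 bp outside; grey, farther outside; purple, inside the gene); the dashed line is the mean over all sequence inside genes, 10.0 per Mb. Right, the median fold enrichment of the same steps in replicate 1 (circles) and replicate 2 (squares), with the 1 to 250 bp zone shaded: the replicate 1 medians in the first 150 bp lie between 3.17 and 3.25, and the replicate 2 medians of the zone between 2.50 and 2.65.

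Regions reached across the edge more often than not. With summits chosen within 250 bp of an edge, the width of the regions makes such overlap frequent. The joined region had a median width of 438 bp, and in 607 of 746 cases (81.4%) it extended into the span of the nearest gene, by a median of 126 bp. The median distance between both replicates' summits was 38 bp, and 442 pairs (59.2%) lay within 50 bp of each other. By the replicate 2 summit, 580 of the 746 (77.7%) were again 1 to 250 bp outside a gene, 85 (11.4%) lay inside one, 81 (10.9%) were 251 to 1000 bp away and 0 were farther. This is no independent check of place, because the choice of regions required an overlapping replicate 2 peak and so holds the summits close together. The replicate 2 summit was nearer to a gene than the replicate 1 summit in 359 regions and farther in 383, so shifts went either way about equally often.

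The regions stood in longer gaps between genes than the sequence available to them. The gap around a summit, from one protein-coding gene to the next, had a median of 1542 bp, against 1162 bp over all arm bases 1 to 250 bp outside genes. Gaps of 2001 to 5000 bp held 30.7% of the regions (27.4% to 34.1%) and 23.3% of those bases, and gaps above 5000 bp held 10.6% (8.47% to 13.0%) and 7.31%. Gaps of up to 250 bp held 4.83% (3.40% to 6.62%) and 7.45%. Per Mb of such sequence, gaps of up to 250 bp carried 61.2 regions and gaps above 5000 bp carried 137.

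**Figure D2:**
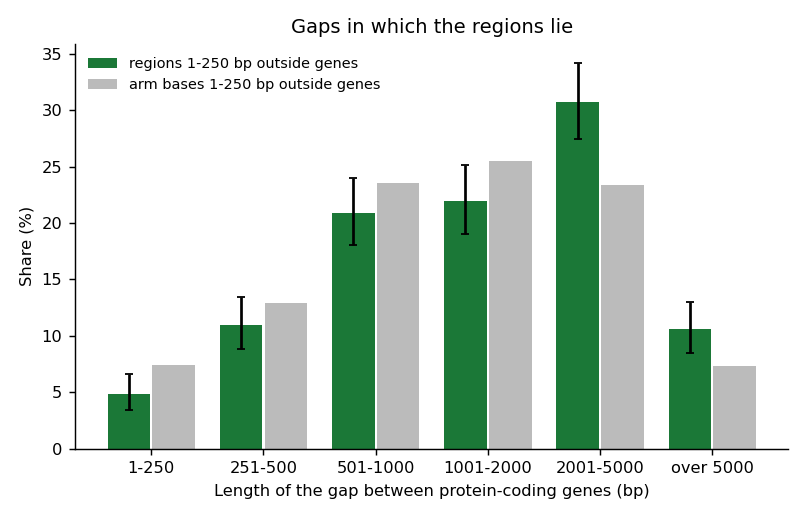
Share (%) of the 746 regions (green, with exact 95% binomial intervals) and of all arm bases 1 to 250 bp outside protein-coding genes (grey) by the length of the gap between protein-coding genes, in bp. The regions have the larger share in gaps of 2001 bp and more (30.7% against 23.3%, and 10.6% against 7.31%) and the smaller share in each class of shorter gaps.

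Most regions had a single gene close by. In 678 regions 1 protein-coding gene had an edge within 250 bp of the summit, in 67 there were 2 and in 1 there were 3. Genes within 250 bp on both flanks were found for 64 regions (8.58%), against 12.1% of the arm bases 1 to 250 bp outside genes. The region with 3 genes, on chromosome 1 at 5447696 to 5448144 (TAIR10), stood between LHCB6 (AT1G15820), an antenna protein gene of photosystem II, and AT1G15825 and AT1G15830.

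Fold enrichment was moderate and on the whole higher in replicate 1. Replicate 1 folds ran from 1.72 to 7.24 with a median of 3.15 (quartiles 2.60 and 3.82), and replicate 2 folds from 1.62 to 5.09 with a median of 2.55 (2.24 and 2.95). Over all arm regions the medians were 3.002 and 2.51. The median for regions 251 to 1000 bp from genes was 2.86 in replicate 1 and 2.50 in replicate 2, and inside genes it was 3.13 and 2.50. Across the 746 regions the folds of the replicates had a Spearman rho of 0.40, and of the 74 regions with the highest fold in one replicate, 27 were among the 74 highest of the other. Both values may share the control that the caller divided by, which is not stated in the sources used here.

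In 579 of the 746 regions (77.6%, 74.4% to 80.6%) fold was higher in replicate 1, against 71.9% of all arm regions. The share was 76.9% inside genes (73.2% to 80.2%), 66.9% at 251 to 1000 bp and 67.98% beyond 1 kb (64.3% to 71.5%). Within the zone it was 82.4% at 1 to 50 bp, 82.6% at 51 to 100 bp, 75% at 101 to 150 bp, 76.8% at 151 to 200 bp and 68.6% at 201 to 250 bp. The excess of replicate 1 was thus larger close to the edge. The replicate 1 median fold went from 3.23 in the first 50 bp to 2.78 at 201 to 250 bp, while that of replicate 2 was 2.50 and 2.56. In all, 379 regions had folds within a factor of 1.25 of each other, and in 28 the folds differed by more than a factor of 2, each time with the higher value in replicate 1.

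Folds changed little from arm to arm. Over the 10 chromosome arms the replicate 1 median lay between 2.71 and 3.34 and the replicate 2 median between 2.45 and 2.84, and the density lay between 78.8 regions per Mb of sequence 1 to 250 bp outside genes, on the arm of chromosome 5 with the higher coordinates, and 129 on the short stretch at the start of chromosome 2, which held 12 regions.

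**Figure D3:**
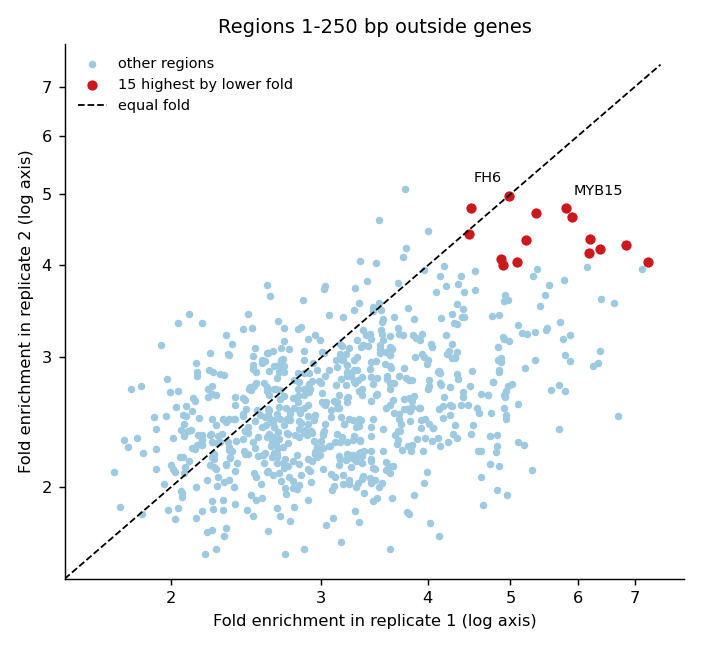
Fold enrichment of each of the 746 regions in replicate 1 (horizontal) and replicate 2 (vertical), both on log axes; red points are the 15 regions with the highest lower fold of both replicates, and the dashed line marks equal folds. 579 of the points lie below the line, and the 15 red points have folds above 4 in both replicates.

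The strongest regions stood beside genes of several kinds. Folds were above 4 in both replicates in 15 of the 746 (2.01%), against 1.57% of all arm regions. The share was higher inside genes (2.59%) and lower at 251 to 1000 bp (0.927%) and beyond 1 kb (1.02%). The region with the highest lower fold, on chromosome 5 at 26926184 to 26926689, lay 107 bp from FH6 (AT5G67470), a formin that nucleates actin filaments, with 4.98 in replicate 1 and 4.97 in replicate 2. Its folds were the most nearly equal of the 15. MYB15 (AT3G23250), a MYB factor known from cold and defence responses, had a region 67 bp away on chromosome 3 at 8308888 to 8309358, with 5.81 and 4.80.

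Regulators of light response, the clock and chromatin were among the 15. RFI2 (AT2G47700), a gene of phytochrome signalling, had a region 13 bp away on chromosome 2 at 19554433 to 19554894, with 6.19 and 4.35. It stood in a gap of 76 bp, so AT2G47710, at 64 bp, shared it. TIC (AT3G22380, TIME FOR COFFEE), a clock regulator, had 6.38 and 4.21 at 105 bp, in a wide region of 2219 bp on chromosome 3 at 7911051 to 7913269. ADA2B (AT4G16420), a partner of histone acetyltransferases, had 4.87 and 4.08 at 73 bp on chromosome 4, 9266026 to 9266437. AHL2 (AT4G22770), of the AT-hook family of SOB3 itself, had 5.22 and 4.34 at 103 bp on chromosome 4, 11965565 to 11966189. In each of these replicate 1 was the higher.

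The remaining strong regions adjoined an RNA-processing gene, a phosphatase gene and genes known only by locus. A region on chromosome 1 at 4326325 to 4326776 (4.47 and 4.41) stood in a gap of 361 bp between RPF1 (AT1G12700), an RNA processing factor, and PP2-A12 (AT1G12710). PLL4 (AT2G28890), a phosphatase of the PP2C type, had 6.18 and 4.15 at 45 bp on chromosome 2, 12408044 to 12408578, with both summits at the same base. The other regions lay beside AT3G19030, AT1G72880, AT1G52870, AT5G20700, AT5G21090, AT3G60520 and AT2G03240, with replicate 1 folds of 4.50 to 7.24 and replicate 2 folds of 4.01 to 4.78. AT3G60520 held the highest replicate 1 fold of all 746 (7.24, with 4.04 in replicate 2), and AT1G52870 was the only one of the 15 with the higher fold in replicate 2 (4.50 and 4.78). At AT3G19030 the replicate 2 summit lay inside the gene. The highest replicate 2 fold of all, 5.09, stood beside RSL2 (AT4G33880), a bHLH factor of root hair growth, with 3.76 in replicate 1.

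The widest differences between replicates were towards replicate 1. AT1G62870 had 6.69 in replicate 1 and 2.50 in replicate 2, AP1 (AT1G69120), a MADS-box factor of floral identity, 4.95 and 1.95, and HB-7 (AT2G46680), a homeodomain factor of drought response, 5.31 and 2.11. At the other end, AT1G48690 had 2.04 and 3.34, AT1G49260 had 2.10 and 3.43 and AT2G16620 had 1.95 and 3.12. On the log2 scale, replicate 1 was higher by 1.33 to 1.42 at the first 3, and its log2 ratio to replicate 2 was -0.71 to -0.68 at the last 3.

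Folds on either side of the 250 bp limit overlapped. Exactly at 250 bp lay the regions beside HDG8 (AT3G03260; 2.14 and 2.83), AT2G41050 (2.61 and 2.54) and AT2G46060 (4.81 and 2.23). At 251 bp, and therefore outside, lay those beside AT2G18810 (2.39 and 2.40), AT2G18840 (3.08 and 3.05) and LYK4 (AT2G23770; 4.87 and 2.24), a receptor-like kinase gene with LysM domains.

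The regions described are a selection of the peaks found at such places. In the replicate 1 list 2289 arm peaks had their summit 1 to 250 bp outside a gene, and 746 (32.6%, 30.7% to 34.6%) overlapped a replicate 2 peak, against 34.4% of replicate 1 arm peaks of any place. The share was 27.6% inside genes (25.7% to 29.6%), 40% at 251 to 1000 bp (37.9% to 42.1%) and 38.03% beyond 1 kb (35.8% to 40.3%). From the other list, 720 of 835 replicate 2 peaks of this place (86.2%, 83.7% to 88.5%) overlapped a replicate 1 peak, against 84.5% of any place. Among replicate 2 peaks the classes lay between 82.98% at 251 to 1000 bp (80.6% to 85.2%) and the 86.2% of this place. Their intervals overlapped, so no order of the classes can be read from replicate 2.

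Overlap was more frequent among stronger peaks. Replicate 1 arm peaks were put into 4 equal groups by −log10 q, the caller's measure of significance. In the lowest group 12.2% of those 1 to 250 bp outside genes had a replicate 2 peak (9.63% to 15.2%) and 18.4% of those at 251 to 1000 bp (15.3% to 21.9%). In the second group the shares were 19.7% and 31.4%, and in the third 33.6% and 44.8%. In the highest group they were 64.7% (60.7% to 68.6%) and 66.9% (62.6% to 70.9%), so the 2 classes lay close together among strong peaks and apart among weaker ones.

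**Figure D4:**
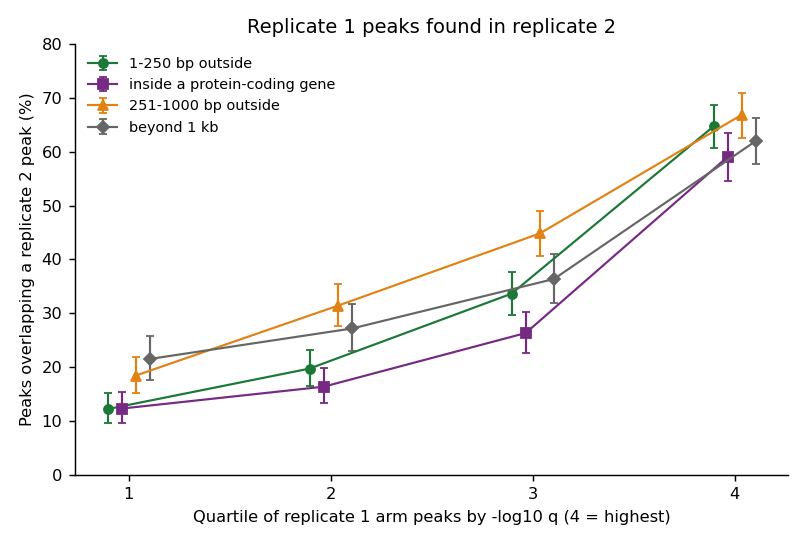
Share (%) of replicate 1 arm peaks that overlap a replicate 2 peak, in 4 equal groups of the replicate 1 arm peaks by −log10 q (4 is the highest), for 4 places of the summit; bars are exact 95% binomial intervals. The share for peaks 1 to 250 bp outside genes goes from 12.2% in the lowest group to 64.7% in the highest.

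At least 1 region stood within 250 bp outside the edge of 802 protein-coding genes, of 24049 on the arms. This 3.33% is the level against which the gene groups are read. Taken alone, peaks of the same place stood beside 10.3% of arm genes in the replicate 1 list and 3.69% in the replicate 2 list, and replicate 1 peaks without a partner beside 7.09%. Longer genes had a region beside them more often, with 4.06% of the longest of 4 equal groups of arm genes (3.57% to 4.59%) and 2.58% of the shortest (2.19% to 3.01%). Genes with a name of their own had one in 4.34% (3.94% to 4.77%) and genes known only by locus in 2.68% (2.42% to 2.96%). Groups of named genes therefore start from a higher level than 3.33%. In all, 111 of 1684 genes in 34 groups chosen by symbol (6.59%) had a region. Of the 34 groups 25 were above 3.33%, but only 8 had an interval that lay wholly above it. Among these 8, the intervals of cytochrome P450 (from 3.78%), gibberellin (from 4.03%) and homeodomain genes (from 4.31%) began below the 4.34% of named genes. The others of the 8 lay wholly above that level too. A gene can share its region with a neighbour, and that a region lies beside a gene says nothing of its expression, which was not measured in the files used here.

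**Figure D5:**
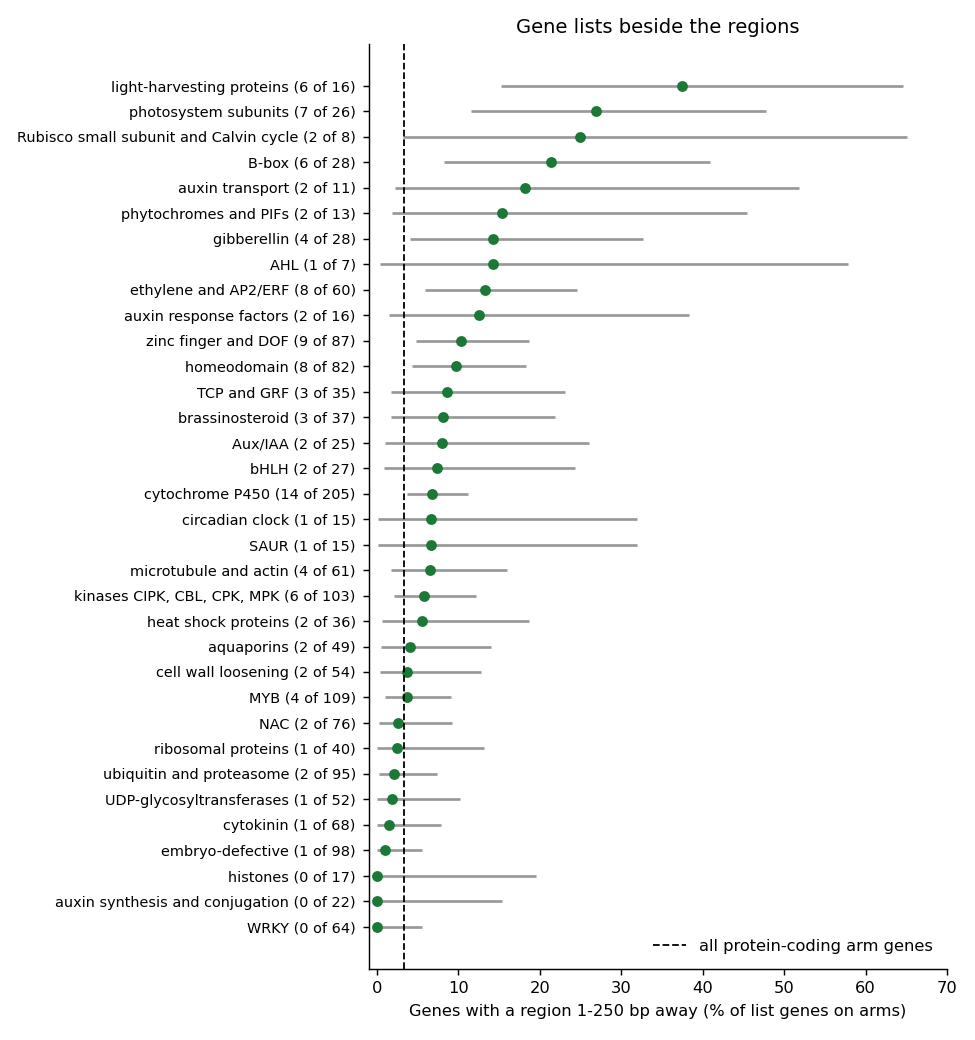
Share (%) of the arm genes of each of 34 groups that have a region 1 to 250 bp from an edge, with exact 95% binomial intervals; the counts stand beside the names and the dashed line marks the 3.33% of all protein-coding arm genes. Light-harvesting proteins (6 of 16) and photosystem subunits (7 of 26) stand at the top, and auxin synthesis and conjugation, histones and WRKY factors at 0.

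Photosynthesis genes were the groups with the highest shares among regions of both replicates. This order did not hold throughout: with −log10 q of at least 5 in both lists photosystem subunits (11.5%) came after B-box genes (17.9%), and in the replicate 1 list alone phytochromes and PIFs (46.2%) came before light-harvesting genes (43.8%). Of 16 genes for light-harvesting proteins, which bind chlorophyll and feed the photosystems, 6 had a region (37.5%, 15.2% to 64.6%). LHB1B2 (AT2G34420) had one on chromosome 2 at 14523303 to 14523783, 101 bp from the gene, with 3.45 in replicate 1 and 3.51 in replicate 2. LHCB4.1 (AT5G01530) had 4.27 and 3.44 at 48 bp, and LHCB6 4.13 and 2.77 at 96 bp. The others, beside CAB2, LHCB2.3 and LHCA1, had lower folds of 1.74 to 3.43. Copies of the LHCB1 and LHCB2 genes are nearly identical and can share reads, so LHB1B2, CAB2 and LHCB2.3 are uncertain as single genes. With only peaks of −log10 q of at least 5 in both lists, 25% of the group had a region, against 2.02% of all arm genes.

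Subunits of the photosystems and carriers of electrons between them had 7 of 26 (26.9%, 11.6% to 47.8%). PSAL (AT4G12800), a subunit of photosystem I, was the strongest with 4.51 and 2.88 at 30 bp, followed by PSBY (AT1G67740; 3.08 and 2.49) of photosystem II and PSAK (AT1G30380; 2.47 and 2.71) of photosystem I. Folds of the rest, PETE1, PSBO1, PSBO2 and PSAO, did not pass 3.15 in either replicate. With −log10 q of at least 5 in both lists the share was 11.5%. In carbon fixation 2 of 8 genes had a region (25%, 3.19% to 65.1%), an interval that includes the 3.33% of all arm genes. They were FBA2 (AT4G38970; 2.70 and 2.99), a plastid aldolase, and RBCS1A (AT1G67090; 2.08 and 2.50), a Rubisco small subunit gene with near-identical copies. Folds in these groups were moderate. The median for light-harvesting genes was 3.44 in replicate 1 and 2.80 in replicate 2, and for photosystem genes 2.59 and 2.31, the latter pair below the medians of all 746 regions.

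Light signalling was represented by zinc finger factors of the B-box family, with 6 of 28 genes (21.4%, 8.30% to 41.0%). A reciprocal overlap of 50% between the replicates' peaks left 10.7%, against 2.76% of all arm genes. BBX28 (AT4G27310) had 4.97 and 3.59 at 15 bp on chromosome 4, 13676765 to 13677668, and BBX29 (AT5G54470) had 3.78 and 2.82 at 199 bp. The region beside BBX19 (AT4G38960; 2.70 and 2.99, at 63 bp), on chromosome 4 at 18163171 to 18163742, was the same as that of FBA2, which lay 92 bp from its other side. BBX14, BBX15 and BBX21 had replicate 1 folds of 2.72 to 4.57 and replicate 2 folds of 2.00 to 2.67, and BBX22 (AT1G78600, listed as LZF1; 4.04 and 3.13) came in when older names were used. Of 13 phytochrome and PIF genes 2 had a region, PIF5 (AT3G59060, listed as PIL6; 2.67 and 2.92, at 177 bp) and PIF7 (AT5G61270; 2.92 and 2.38, at 80 bp), both bHLH factors that act with phytochromes. Clock genes matched by symbol had 1 of 15, PRR9 (AT2G46790; 3.73 and 2.25). Of these 15, 0 did with −log10 q of at least 5 in both lists or in the replicate 2 list alone. With older names added, 2 of 21 clock genes had a region. Both counts leave out the clock regulator TIC, named above, whose region had −log10 q of 68.2 in replicate 1 and 27.5 in replicate 2.

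Auxin genes with a region encoded carriers, repressors and response factors. Of 11 genes for auxin carriers 2 had a region (18.2%, 2.28% to 51.8%), among them the efflux carrier gene PIN3 (AT1G70940; 4.54 and 3.93, at 115 bp, chromosome 1, 26742456 to 26743102). Of 25 Aux/IAA repressor genes 2 did (8.00%), IAA8 (AT2G22670; 5.48 and 3.65, at 236 bp) and IAA2 (AT3G23030; 4.84 and 2.86, at 1 bp from the edge). Of 16 auxin response factors there were ARF10 (AT2G28350; 3.21 and 2.64) and MP (AT1G19850, ARF5; 2.21 and 2.72), a factor of embryo and vein patterning. None of the 22 genes for auxin synthesis and conjugation had a region, which allows a share of up to 15.4%. These groups are small, and their intervals overlap.

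SAUR genes, which encode small auxin-induced proteins, were mostly listed under locus names. By symbol alone 1 of 15 had a region, SAUR20 (AT5G18020; 4.71 and 2.67, at 241 bp), whose neighbours are near-identical copies. With older names added, 8 of 75 did (10.7%). Among them was SAUR72 (AT3G12830), with a region on each side, of 4.84 and 2.97 on one and 2.06 and 1.93 on the other.

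Gibberellin genes with a region covered a receptor, a synthesis enzyme and repressors. Of 28 gibberellin genes 4 had one (14.3%, 4.03% to 32.7%). The receptor gene GID1B (AT3G63010) had 4.21 and 3.03 at 15 bp, on chromosome 3 at 23287905 to 23289486, and the synthesis gene GA3OX2 (AT1G80340) 2.89 and 2.44 at 170 bp. RGA1 (AT2G01570, RGA) and GAI (AT1G14920), which encode DELLA repressors of gibberellin response, had them too. RGA1 had a region on each side of the gene, with 3.43 and 2.18 at 67 bp on one and 2.30 and 2.47 at 93 bp on the other, and GAI had 2.60 and 2.10 at 45 bp.

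Of 37 brassinosteroid genes 3 had a region (8.11%), and all 3, BEH1, BEH2 and BEH3, belong to the small family of BES1 and BZR1 factors. BEH2 (AT4G36780) had 4.70 and 2.67 at 23 bp, BEH1 (AT3G50750) 3.11 and 2.06 at 61 bp and BEH3 (AT4G18890) 3.78 and 1.85 at 95 bp. Each was higher in replicate 1. Cytokinin genes had 1 of 68 (1.47%), RR22 (AT3G04280; 2.43 and 2.50), a response regulator.

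Genes of ethylene and of AP2/ERF factors had 8 of 60 (13.3%, 5.94% to 24.6%). The group was matched on symbols and also took in a gene of another family. With −log10 q of at least 5 in both lists the share was 5%. The strongest was DREB1A (AT4G25480), a factor of cold response, with 7.13 and 3.96 at 59 bp on chromosome 4, 13017655 to 13018374, and its summit also lay inside an annotated lncRNA gene, AT4G07385. The ethylene receptor gene ERS1 (AT2G40940) had 4.94 and 2.50 at 6 bp, in a region shared with BZIP17 at 233 bp. A second receptor gene, EIN4, was higher in replicate 2 (2.14 and 2.86). ERF15, ERF5, RAP2.4 and DREB2B were also among them, with replicate 2 folds of 2.02 to 2.81.

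Of the transcription factor families without a hormone in their name, those with zinc finger, DOF, LBD and homeodomain factors had shares of about 10%. With −log10 q of at least 5 in both lists, zinc finger, DOF and LBD factors had 5.75% and homeodomain factors 7.32%, against 2.02% of all arm genes. A reciprocal overlap of 50% left 5.75% and 8.54%, against 2.76% of all arm genes. Zinc finger, DOF and LBD factors had 9 of 87 (10.3%, 4.84% to 18.7%), led by LBD38 (AT3G49940; 3.997 and 2.98), IDD4 (AT2G02080; 6.34 and 2.95, at 2 bp) and CDF3 (AT3G47500; 2.93 and 2.78), a DOF factor of flowering time. Homeodomain factors had 8 of 82 (9.76%, 4.31% to 18.3%), led by ATHB-15 (AT1G52150; 3.53 and 3.48, at 44 bp), an HD-Zip III factor of leaf polarity and vascular growth, and by the zinc finger homeodomain genes HB31 (AT1G14440; 3.69 and 3.29) and HB25 (AT5G65410; 3.36 and 3.27). These 3 were even between replicates, unlike HB-7 above. The HD-Zip II genes HAT9 and HAT22 and the KNOX gene KNAT4 had regions as well, with replicate 2 folds of 2.52 to 2.93.

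MYB, NAC and WRKY factors had shares near or below 3.33%. MYB factors had 4 of 109 (3.67%), with MYB20 (AT1G66230; 5.87 and 2.97) and MYB47 (AT1G18710; 3.93 and 2.47) after MYB15. NAC factors had 2 of 76 (2.63%), NAC083 (AT5G13180; 3.36 and 2.07) and NAC042 (AT2G43000; 1.998 and 2.14). The count leaves out ATAF2 (AT5G08790; 2.91 and 2.72), a NAC factor listed under another symbol and chosen after its values were seen. WRKY factors had 0 of 64, which allows a share of up to 5.60%. bHLH factors listed under other names had 2 of 27 (7.41%), RSL2 and UNE10 (AT4G00050; 2.996 and 2.77). Leaf growth factors had 3 of 35 (8.57%), TCP3 (AT1G53230; 3.86 and 2.65), GRF7 (AT5G53660; 2.13 and 2.25), a growth-regulating factor, and GRF9 (AT2G42590; 4.93 and 2.65), which in the gene table is a general regulatory factor and thus of another family. The AT-hook family had AHL1 (AT4G12080; 2.60 and 2.50) by symbol and, with older names, AHL2, which makes 2 of 28.

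Cytochrome P450 genes, which encode oxidases of many pathways, had 14 of 205 (6.83%, 3.78% to 11.2%). CYP71B20 (AT3G26180) had a region on each side, with 4.38 and 3.87 at 81 bp and 4.14 and 2.75 at 249 bp. CYP71B11 (AT5G25120; 3.45 and 3.47) and CYP72A14 (AT3G14680; 3.92 and 3.16) followed. CYP72A10 and CYP72A11 shared 1 region (4.003 and 2.72). Several of these genes stand in arrays of similar copies, so neither their reads nor their counts are independent.

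Cell wall genes (3.70%) and aquaporins (4.08%) had shares near that of all genes. Kinases (5.83%, 2.17% to 12.2%), heat shock genes (5.56%, 0.680% to 18.7%) and cytoskeletal genes (6.56%, 1.82% to 15.9%) had higher shares. Each of these intervals includes the share of all genes. With −log10 q of at least 5 in both lists, cytoskeletal genes had 1.64%, below the 2.02% of all arm genes. Kinases then had 2.91% and heat shock genes 5.56%. Cell wall loosening genes had 2 of 54, EXPA12 (AT3G15370; 2.86 and 3.06) and EXPA1 (AT1G69530; 4.74 and 2.15), both expansins. Aquaporins had 2 of 49, PIP3 (AT4G35100; 2.50 and 2.75) and TIP2 (AT3G26520; 2.57 and 2.16). In the replicate 2 list alone 0 aquaporin genes had a peak of this place, and in the replicate 1 list alone 7 did. Kinases, chiefly of calcium and MAP kinase signalling, had 6 of 103, led by MPK16 (AT5G19010; 3.48 and 4.03), SNRK2.10 (AT1G60940; 4.94 and 2.70) and CIPK25 (AT5G25110; 2.59 and 2.73). By its symbol SNRK2.10 is an SnRK2 kinase and thus of another family. Cytoskeletal genes had 4 of 61, with ACT11 (AT3G12110; 2.64 and 2.41) and PRF1 (AT2G19760; 2.32 and 2.15) besides FH6. Heat shock genes had 2 of 36, HSF3 (AT5G16820; 5.76 and 3.18), a heat shock factor, and HSF A4A (AT4G18880; 3.32 and 2.47).

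Several further groups had shares below 3.33%, with intervals that include it. Ribosomal protein genes had 1 of 40 (2.50%), RPL23AB (AT3G55280; 2.92 and 2.03), histones had 0 of 17 (up to 19.5%), and genes of ubiquitin and the proteasome had 2 of 95 (2.11%), UBC6 (AT2G46030; 3.45 and 1.92) and RPN12b (AT5G42040; 4.12 and 1.71). Genes named for embryo defects had 1 of 98 (1.02%, 0.0258% to 5.55%), EMB2279 (AT1G30610; 4.33 and 3.54), but with older names added 5 of 183 did (2.73%). UDP-glycosyltransferases had 1 of 52, UGT72B3 (AT1G01420; 3.96 and 2.03). With −log10 q of at least 5 in both lists, ribosomal, ubiquitin and proteasome, UDP-glycosyltransferase and NAC genes had 0.

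A few genes were flanked on both sides. In 13 of the 802 genes a region stood within 250 bp of each edge. Besides RGA1, CYP71B20 and SAUR72, these included BBX15, PSBO2 and GATA1 (AT3G24050), a GATA zinc finger factor, with 4.02 and 2.75 on one side and 4.06 and 2.40 on the other. A/N-InvC (AT3G06500), an invertase that splits sucrose, had 3.70 and 2.48 on one side and 4.65 and 1.89 on the other. ATSAC1 (AT1G22620) was the longest of the 13, with a span of 8824 bp. These genes, like the pairs of neighbours named next, were chosen after their values were seen.

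Some regions with strong signal had more than 1 gene close by. ICU2 (AT5G67100), a DNA polymerase subunit gene, and ALC (AT5G67110), a bHLH factor of fruit opening, lay on the same side of a summit, each with an edge 137 bp from it, in a region on chromosome 5 at 26786391 to 26786799, with 5.31 and 3.87. VAL3 (AT4G21550) and SPHK1 (AT4G21540), on opposite sides, shared one of 5.35 and 3.25, and HSF3 shared its region with AT5G16810, also on the opposite side. To which gene such signal belongs cannot be told apart.

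Of the 746 summits, 9 (1.21%) also lay inside a gene of another kind, 6 of them in lncRNA genes, 1 in a miRNA gene, 1 in a tRNA gene and 1 in another noncoding RNA gene. The miRNA gene was MIR8166 (AT1G04993), on chromosome 1 at 4525004 to 4526949, where fold was 4.14 in replicate 1 and 3.87 in replicate 2 and the nearest protein-coding gene was RTFL17 (AT1G13245), at 135 bp. The summit beside TCP3 lay in the lncRNA gene AT1G53233, and the one beside NAGS2 (AT4G37670; 5.42 and 3.52) in AT4G09555.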

How the data were processed

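The submitters' processing notes name bcl2fastq, Bowtie 0.12.9, MACS2 and the build TAIR10. Version, control and threshold of the peak caller are not stated in these sources. Peak names in the deposited lists are numbered within each replicate, so peaks were called per replicate. The deposited fold column is the authors' linear ratio of summit signal to control, and −log10 p and −log10 q are also as deposited (lowest −log10 q 1.33 and 1.30). The authors' score column restates −log10 q and was not used, and the other deposited column used is the summit position.

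Spans of genes were read from RefSeq (assembly TAIR10.1; 27432 protein-coding genes on chromosomes 1 to 5), whose nuclear chromosomes are taken to have TAIR10 coordinates. The table gives no strand, and no genome sequence was used here. Pericentromeric intervals left out were 11.5 to 17.7 Mb on chromosome 1, 1.1 to 7.2 Mb on 2, 10.3 to 17.3 Mb on 3, 1.5 to 6.3 Mb on 4 and 9.0 to 16.0 Mb on 5. Genes counted as arm genes by their midpoint. Joining, placing and counting were done in Python 3.11.15 with pandas 2.3.3 and SciPy 1.17.1 and tested on simulated data.

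The regions and gene groups were chosen with earlier results of these data known. Named are the genes nearest to the 15 regions with the highest lower fold of both replicates, up to 3 genes per group, the 3 regions with the widest difference between replicates in each direction, and 3 on each side of the 250 bp limit; others were chosen after their values were seen. Groups were matched on gene symbols, which can take in genes of another family and miss members listed under other symbols, and some of their genes are not reported here. Gene density, gaps, gene length, replicate 2 summits and groups by −log10 q were added after the files were seen. No test was run: values are described by counts, medians and exact 95% binomial intervals.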

Additional observations from a re-analysis of the deposited data

Results flagged for a closer look

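Outside the regions described, 1543 replicate 1 arm peaks and 115 replicate 2 arm peaks had their summit 1 to 250 bp outside a protein-coding gene but no peak in the other replicate. They are flagged as signal in data that the main description sets aside. Their median folds were 2.43 in replicate 1 and 2.30 in replicate 2. The replicate 1 peaks without a partner stood beside 1704 arm genes (7.09%), of which 1679 had none of the described regions. Among the gene groups they stood beside 11 of 60 ethylene and AP2/ERF genes, 11 of 82 homeodomain, 12 of 87 zinc finger, DOF and LBD, 10 of 52 UDP-glycosyltransferase and 1 of 16 light-harvesting genes. The difference from the described regions was not tested.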

How the results depend on the processing

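Of 47 recomputed summary values, 38 stayed within the limits set for them, which were 1.5 times for counts, the exact interval for shares and 1 SD between replicates for medians. Peaks with a −log10 q of at least 5 in both lists left 448 regions beside 485 genes, and 27.3% of replicate 1 peaks of this place then had a partner. A reciprocal overlap of 50% gave 26.4% for the latter. With the pericentromeres included the regions were 22.2% of all. Without each replicate in turn, the other list alone held 835 or 2289 peaks of this place, beside 888 or 2481 genes, at 23.8% or 27.3% of its arm peaks. The median fold without replicate 2 was 2.60 in replicate 1, and that without replicate 1 was 2.50 in replicate 2. Causes were not tested. The share of regions higher in replicate 1 ran from 74.5% to 78.5% over its alternatives, and the number of gene groups above the level of all genes from 22 to 28, including the match on older names added after seeing the data. Of 170 recomputed group shares, 28 left their interval. In the replicate 1 list alone 7 of 16 light-harvesting and 10 of 26 photosystem genes had a peak of this place (all genes 10.3%), and in the replicate 2 list 4 and 6 (all genes 3.69%). The planned share of regions on the start side of genes and the promoter composition were not run, since strand and sequence were not used here. No paired analysis was possible because there is 1 group of 2 libraries and no test. Depth is unknown, so no limit of detection per library was set.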
